A study of Homo sapiens with 9 samples.

Results

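The proteasome genes described here are the 48 genes of the deposited table whose symbol begins with PSM, then a letter from A to G and a number, out of 60623 listed genes. They encode the subunits of the proteasome, its assembly factors, its activators and an inhibitor. Of the 48, 46 passed the filter on low counts. PSMA8, an alpha subunit found in testis, and PSMB11, the thymus-specific catalytic subunit, did not and had 0 counts in every library. RNA was sequenced from 22Rv1, a human prostate carcinoma cell line whose own PDCD4 had been depleted with a short hairpin RNA. PDCD4 is a tumour suppressor that inhibits the translation initiation helicase EIF4A. The groups differ in the form of PDCD4 put back: S239D, in which aspartate replaces a serine to mimic its phosphate, S239A, in which alanine replaces that serine and cannot be phosphorylated, and the wild type (WT). All 3 groups carry the hairpin, each has 3 libraries, and the question is how the kinase PLK1, by phosphorylating PDCD4, bears on enzalutamide resistance. The labels name no drug treatment of the sequenced cells, do not say whether a group is 1 clone or which promoter drives the rescue, and give no separate culture for each library. A p-value below is therefore a measure of the spread among the libraries alone, and that spread may be technical.

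The proteasome degrades proteins that carry ubiquitin chains. Its barrel-shaped core particle (20S) has outer rings of alpha subunits, which gate entry, and inner rings of beta subunits, of which PSMB5, PSMB6 and PSMB7 cut peptide bonds. The regulatory particle (19S) binds, unfolds and feeds in substrates with a ring of ATPases (PSMC genes) and a set of non-ATPase subunits (PSMD genes). Interferon induces PSMB8, PSMB9 and PSMB10, which take the places of PSMB5, PSMB6 and PSMB7 in the immunoproteasome and favour peptides for MHC class I, and it induces the activator subunits PSME1 and PSME2. When proteasome activity falls short, the transcription factor NFE2L1 raises the subunit genes together through antioxidant response elements.

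Counts summed to between 5696841 and 9688554 per library. Expression is given as normalised CPM, counts scaled to library size with TMM factors, and fold changes are edgeR's on the log2 scale with Benjamini-Hochberg adjustment over the 16213 genes tested. A gene is said to rise or fall where the adjusted p was under 0.05. PDCD4, the targeted gene, stood at 16.8, 17.1 and 17.0 CPM in S239D, 19, 23.1 and 25 CPM in S239A, and 24.1, 24.9 and 20.4 CPM in WT. PDCD4 fell in S239D against WT by edgeR's quasi-likelihood test (log2 fold change -0.44, SE 0.13, adjusted p = 0.0164), a call lost without WT replicate 1 or 2 (adjusted p 0.0657 and 0.0627) and in limma fits of TPM. Its reads can come from the cells' own gene and from the rescue, and cells without the hairpin were not analysed here. Mitochondrial transcripts took 4.72% to 6.01% of counts in S239D, 2.99% to 5.38% in S239A and 2.83% to 3.04% in WT. The replicate 2 libraries of S239D and S239A stood apart from the others of their groups, with a chi-square per degree of freedom over genes of 9.22 to 15.9, while other pairs within a group gave 1.9 to 2.49. Of 10 prostate epithelial markers 2 rose and 7 fell in S239D against WT, beside 19.7% and 21.7% of all genes. Their summed levels were 3660 to 4000 CPM in S239D, 5300 to 5930 CPM in S239A and 5000 to 5100 CPM in WT. The part of these differences in the results was not tested. With mitochondrial genes left out, the counts of proteasome genes called were 18, 0 and 13 in the 3 comparisons, the same as with them.

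Short stretches of DNA around the start sites of the genes whose levels are followed below show where 2 motifs stand. They are taken from RefSeq promoter windows on GRCh38.p14, which run from 250 bases before to 50 bases after a start, and 42 of the 48 genes had one. The capitals mark a core of the interferon-stimulated response element (GAAA, then any 2 bases, then GAAA) in the immunoproteasome genes PSMB8 and PSMB10, the activator genes PSME1 and PSME2 and in PSMB4, on either strand and read 5′ to 3′ along the gene:
PSMB8 (chr6:32844032-32844061, minus strand): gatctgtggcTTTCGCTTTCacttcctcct
PSMB10 (chr16:67936851-67936901, minus strand): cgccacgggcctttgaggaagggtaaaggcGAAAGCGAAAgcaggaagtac
PSME1 (chr14:24136189-24136218, plus strand): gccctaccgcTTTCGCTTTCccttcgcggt
PSME2 (chr14:24146611-24146668, minus strand): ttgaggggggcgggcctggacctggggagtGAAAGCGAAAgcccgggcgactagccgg
PSMB4 (chr1:151399475-151399544, plus strand): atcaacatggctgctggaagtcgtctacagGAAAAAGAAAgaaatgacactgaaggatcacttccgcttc

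Read on its own strand, the marked stretch has the same 10 letters in PSMB8, PSMB10, PSME1 and PSME2, and other letters between the GAAA blocks in PSMB4. In all, 7 of the 51 windows of proteasome genes held this core (13.7%), against 3.57% of the 35116 windows in the RefSeq table. PSMA4 and PSMG4 were the others, and PSMB9 had no match. A second motif, TGACNNNGC, is the core of the antioxidant response element. Genes with it changed in either direction or were not called in S239D, and it is shown for PSMC4 and PSMD12 as examples from the regulatory particle:
PSMC4 (chr19:39971182-39971210, plus strand): acagaggccgGCTTGGTCActatggagga
PSMD12 (chr17:67366704-67366772, minus strand): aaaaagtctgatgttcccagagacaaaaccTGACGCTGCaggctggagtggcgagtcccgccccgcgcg

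TGACNNNGC stood in 15 of the 51 windows (29.4%), against 13.3% of all windows. Of the 15 genes, PSMC4, PSMD12 and PSME4 rose in S239D against WT, PSMA4, PSMB3 and PSME1 fell, PSMB9 was low there, and PSMC5, PSMD1, PSMD3, PSMD5, PSMD9, PSMG1, PSMG2 and PSME2 were not called. PSMD6, which rose, had no match. The GC box GGGCGG stood in 68.6% of the proteasome windows and in 45.0% of all windows. CCAAT was found in 39.2% of them, against 34.6% of all, and the E-box CACGTG in 5.88%, against 7.26%. Each motif was searched on both strands, and a match describes the letters only.

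Levels between genes were compared as TPM, which the authors scaled for transcript length. PSMB4, a non-catalytic beta subunit, was the most abundant proteasome transcript, at 643 ± 15 TPM in S239D, 892 ± 39 TPM in S239A and a mean of 1000 TPM in WT (SD, n = 3). The other tested alpha, constitutive beta and regulatory-particle genes lay between 41.1 TPM (PSMD14) and 280 TPM (PSMA7) in S239D. The immunoproteasome genes were far below, at 0.77 TPM for PSMB8, 2.81 TPM for PSMB9 and 29 TPM for PSMB10 in S239D. The summed level of the 15 alpha and constitutive beta genes was 2770 ± 38 TPM in S239D, 3010 ± 160 TPM in S239A and 3420 ± 68 TPM in WT. The 17 regulatory-particle genes summed to 2210 ± 46 TPM in S239D, 1890 ± 54 TPM in S239A and 2030 ± 32 TPM in WT. The core-particle sum was thus lowest in S239D. By TPM, its gap between S239D and S239A was about as large as that of PSMB4 alone. As normalised CPM the sum was 1449, 1449 and 1471 in S239D and 1684, 1551 and 1732 in S239A. In WT it was 1879, 1888 and 1845. The regulatory-particle sum was highest in S239D by TPM alone. By normalised CPM it was 2122, 2058 and 2175 in S239D, 1920, 2019 and 1912 in S239A, and 2086, 2056 and 2104 in WT, so that S239D and WT overlapped.

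**Figure D1:**
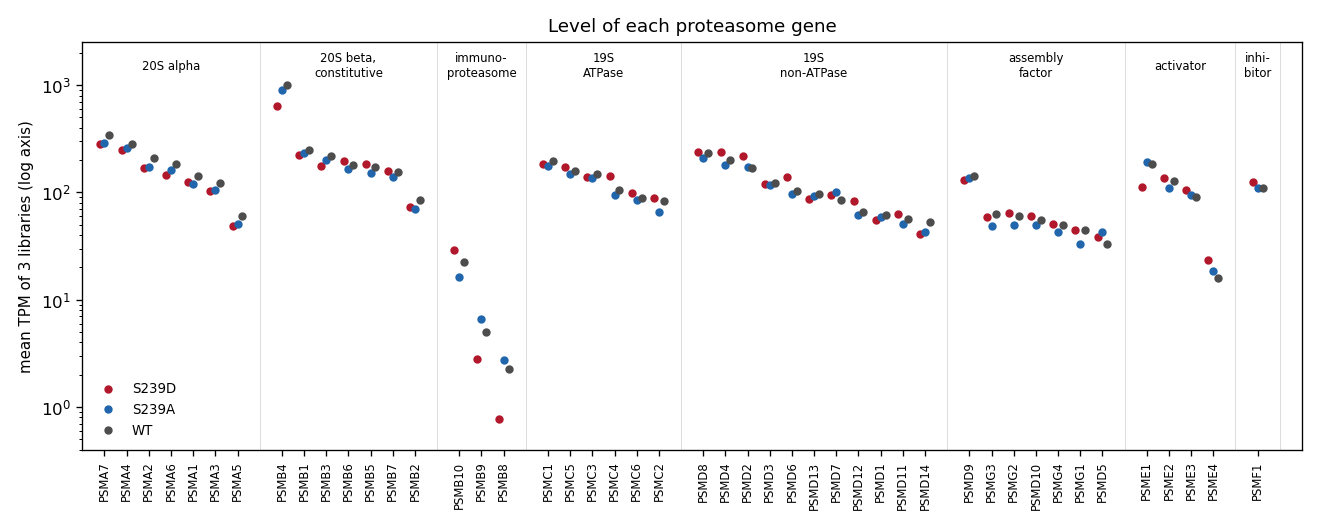
Mean TPM of 3 libraries on a log axis for the 46 tested proteasome genes, grouped by role, with S239D left of S239A and WT. PSMB4 stands above all others in each group, and PSMB8, PSMB9 and PSMB10 are among the lowest.

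In S239D against WT, 4 of the 46 tested proteasome genes rose (8.7%) and 14 fell (30.4%), while 19.7% of all genes tested rose and 21.7% fell. The median log2 fold change of the 46 was -0.09, against 0.00 over all genes tested. In 9 of the 46 every S239D library was above every WT library, against 26.5% of all genes, and in 16 every one was below, against 27.4%. Calls in either direction made up 41.4% of all genes. PSMB8 and PSMB9 passed the filter through S239A and WT alone, since 0 S239D libraries reached its level of 1.17 CPM, so their fall was fixed by the filter. Without them, 4 of 44 rose and 12 fell. With both replicate 2 libraries that stood apart left out, 10 rose and 17 fell, while 25.3% of all genes rose and 26.3% fell. With limma on log2(TPM + 1) 4 of the 46 rose and 6 fell, while 2526 of 17363 genes in all rose and 1825 fell. In that fit the share of proteasome genes that fell lay nearer to the share over all genes than with edgeR. Of all genes called, 58.1% were higher with limma, against 47.6% with edgeR. Changes were small, with 10 of the 14 falls and all 4 rises under 1.5-fold. By role, the falls lay mainly in the core particle, where 9 of 14 tested alpha and constitutive beta genes fell and 0 rose, while 3 of 17 regulatory-particle genes rose and 2 fell.

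**Figure D2:**
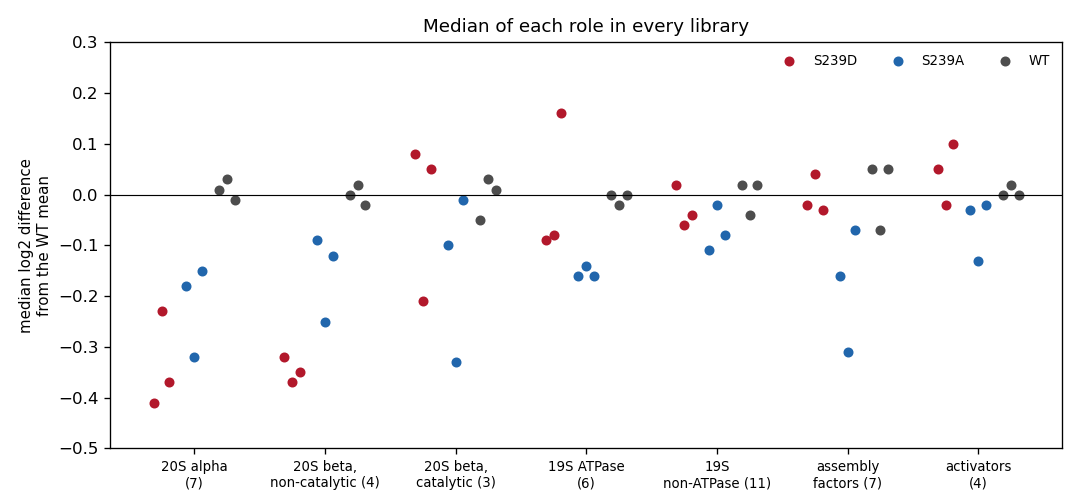
Median over the genes of each role of the log2 difference from the WT mean, 1 point per library, with S239D left of S239A and WT and the number of genes in brackets. The alpha genes have medians of -0.41 to -0.23 in S239D and -0.32 to -0.15 in S239A, all below the -0.01 to 0.03 of WT.

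Most genes of the alpha ring fell in S239D. All 7 tested alpha genes had log2 fold changes below 0 against WT, from -0.47 to -0.27 with a median of -0.32. By edgeR 6 of the 7 fell, beside 21.7% of all genes. PSMA5 stood at 55.1, 60.8 and 61.6 CPM in S239D, 66.8, 63.6 and 73.8 CPM in S239A, and 80.2, 80.9 and 84.4 CPM in WT. Every S239D library was below every S239A library, and these were below every WT library (S239D against WT log2 fold change -0.47, SE 0.092, adjusted p = 0.00106). PSMA6 stood at 70.6, 88.3 and 68.7 CPM in S239D, 91.8, 84.8 and 90.9 CPM in S239A, and 103, 107 and 96.8 CPM in WT, with replicate 2 the highest S239D library but still below WT (log2 fold change -0.43, SE 0.10, adjusted p = 0.00391). PSMA7 fell by 0.38, PSMA2 by 0.31, and PSMA1 and PSMA4 by 0.27 each on the log2 scale. PSMA3, whose S239D and WT libraries overlapped, had a log2 fold change of -0.32 and an adjusted p of 0.0589.

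The calls of PSMA1 and PSMA3 turned on the fit. PSMA1 lost its call without any 1 of the WT libraries or S239D replicates 1 or 3 (adjusted p 0.0611 to 0.111), and PSMA3 gained one without WT replicate 1 (adjusted p = 0.0461) or S239D replicate 2 (adjusted p = 0.00226), and with the replicate number as a block (adjusted p = 0.0193) or no filter on low counts. With limma on log2(TPM + 1) in place of edgeR, 2 alpha genes were called lower, and 1 and 0 with a pseudocount of 0.1 and without a filter, the median of the 7 being -0.30 with all 7 below 0 each time. Reads of PSMA2 and PSMA6 can be shared with read-through genes on the same strand, which had 123 and 117 mean counts beside 1010 and 742 of their own.

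In the constitutive beta ring the falls lay among the non-catalytic subunit genes. The 4 non-catalytic subunit genes PSMB1, PSMB2, PSMB3 and PSMB4 had log2 fold changes of -0.71 to -0.23 in S239D against WT. All 4 had every S239D library below every WT library, beside 27.4% of all genes. By the test 3 of the 4 fell, beside 21.7% of all genes. The 3 catalytic subunit genes had log2 fold changes of -0.06 to 0.06, their libraries overlapped and none was called. That the 2 sets differ was not tested.

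PSMB4 (chromosome 1, 151399560 to 151401937) showed the most precise fall of all proteasome genes. It stood at 294, 295 and 293 CPM in S239D, 447, 408 and 442 CPM in S239A, and 484, 487 and 477 CPM in WT. The 3 S239D libraries lay within 2 CPM of each other and far below every other library. The fall was 0.71 on the log2 scale against WT (SE 0.071, adjusted p = 3.73e-06 by edgeR) and 0.56 against S239A (SE 0.071, adjusted p = 2.75e-05), and it was called under all 21 alternatives. PSMB3 stood at 64.1, 57.1 and 58.5 CPM in S239D, 78.9, 62.2 and 71.2 CPM in S239A, and 76.5, 79.2 and 75.7 CPM in WT, so that S239D was below WT in every library (log2 fold change -0.36, SE 0.10, adjusted p = 0.00939). PSMB2 fell by 0.25 with an adjusted p of 0.037, a call lost without any 1 of the WT libraries, S239A replicate 1 or S239D replicates 1 or 3 (adjusted p 0.0555 to 0.151). PSMB1 was not called (log2 fold change -0.23, adjusted p = 0.0595), but was without S239A replicate 2 or 3 (adjusted p 0.0217 and 0.0485) and with the replicate block (adjusted p = 0.0404).

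PSMB5, the chymotrypsin-like subunit and target of bortezomib, stood at 104, 82.1 and 111 CPM in S239D, 88.4, 75.6 and 94.5 CPM in S239A, and 92.0, 97.5 and 95.7 CPM in WT. S239D replicate 2 was below WT and the other S239D libraries above it, giving a log2 fold change of 0.06 with a 95% interval of -0.18 to 0.31. PSMB6, the caspase-like subunit, stood at 77.8, 72.4 and 76.2 CPM in S239D, 69.7, 56.5 and 74.8 CPM in S239A, and 70.8, 74.3 and 76.4 CPM in WT, giving 0.03 on the log2 scale and an interval of -0.19 to 0.25. PSMB7, the trypsin-like subunit, stood at 87.1, 65.6 and 84.6 CPM in S239D, 71.6, 72.6 and 74.9 CPM in S239A, and 86.7, 84.3 and 76.3 CPM in WT, giving -0.06 on the log2 scale and an interval of -0.29 to 0.17. In all 3 catalytic genes the replicate 2 library was the lowest of S239D.

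**Figure D3:**
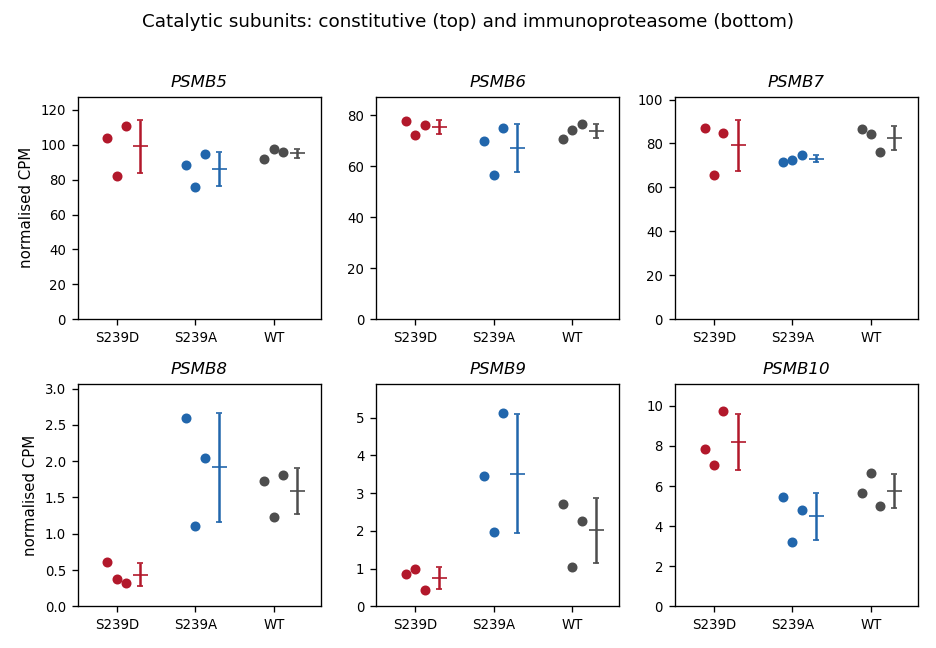
Normalised CPM of the catalytic subunits in every library, constitutive genes above and the immunoproteasome genes that replace them below, with S239D left of S239A and WT. Points are libraries, and the bar beside them is mean ± SD (n = 3). PSMB8 lies at 0.315 to 0.612 CPM in S239D, below every other library, while each S239D library of PSMB10 is above every other library.

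Of the immunoproteasome genes, PSMB8 and PSMB9 had their lowest levels in S239D, and PSMB10 rose there against S239A. PSMB8 (chromosome 6, 32840717 to 32844679) stood at 0.612, 0.370 and 0.315 CPM in S239D, 2.59, 1.11 and 2.05 CPM in S239A, and 1.73, 1.23 and 1.81 CPM in WT. PSMB9, whose gene overlaps it by 544 bases on the other strand, stood at 0.857, 0.987 and 0.420 CPM in S239D, 3.46, 1.97 and 5.12 CPM in S239A, and 2.71, 1.05 and 2.27 CPM in WT. No S239D library reached the lowest WT or S239A library for either gene. PSMB10 (chromosome 16, 67934506 to 67936864) stood at 7.84, 7.03 and 9.76 CPM in S239D, 5.43, 3.20 and 4.82 CPM in S239A, and 5.64, 6.67 and 4.99 CPM in WT, so that all S239D libraries were the highest.

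PSMB8 and PSMB9 rest on few reads. PSMB8 had 11 counts in the 3 S239D libraries together, 50 in S239A and 39 in WT, and PSMB9 had 19 in S239D, 94 in S239A and 51 in WT. Scaled to depth, the PSMB8 ratio was 0.26 for S239D over WT and 0.222 for S239D over S239A. The PSMB9 ratio was 0.343 for S239D over WT and 0.204 for S239D over S239A. These pooled counts do not measure the spread among libraries. The floor of 3 counts per library was 0.3074 to 0.5268 CPM, and 2 of the 3 PSMB8 values in S239D lay at about that level.

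Since PSMB8 and PSMB9 entered the fit only through S239A and WT, their levels and ratios are a description with no test. PSMB10 was not called by edgeR against WT (log2 fold change 0.53, SE 0.22, adjusted p = 0.0718), was called without S239A replicate 2 or S239D replicate 2 (adjusted p 0.0385 and 0.0499), and rose against S239A (log2 fold change 0.87, SE 0.23, adjusted p = 0.00651). The call against S239A was lost in the limma fits of TPM (adjusted p = 0.0542 on log2(TPM + 1)). Strandedness is not given in the sources used here. Reads of PSMB8 and PSMB9 may therefore come from the overlapping antisense gene PSMB8-AS1 (34.9 mean counts, against 11.1 and 18.2) or, for PSMB9, from TAP1 (250 mean counts), and those of PSMB10 from ENSG00000261884 on its own strand (46.4 mean counts, against 51.5).

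As a share of the constitutive subunit that it replaces, PSMB8 was 0.598%, 0.485% and 0.202% of PSMB5 in S239D, 2.44%, 1.11% and 1.79% in S239A, and 1.63%, 0.916% and 1.44% in WT, by TPM. All S239D values were the lowest. PSMB9 was 1.42 ± 0.84% of PSMB6 in S239D, 3.94 ± 1.3% in S239A and 2.75 ± 1.3% in WT (SD, n = 3), with overlap between S239D and WT. PSMB10 was 18.3 ± 3.6% of PSMB7 in S239D, 11.7 ± 4.4% in S239A and 14.3 ± 1.8% in WT. Its S239D and WT libraries overlapped again (exact permutation p = 0.3, two-sided). Those of S239D and S239A did not (exact permutation p = 0.1, the smallest that 3 against 3 libraries can give, 0.225 adjusted over 9 comparisons). Transcripts of the immunoproteasome subunits were thus in the minority beside their constitutive counterparts in every library.

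Leukocytes hold immunoproteasome without induction, and their 9 markers summed to 1.84 to 1.97 CPM in S239D, 2.46 to 6.54 CPM in S239A and 2.83 to 3.9 CPM in WT. CD3E, MS4A1 and NKG7 were at 0 in all libraries, and of the 2 that were tested 1 fell in S239D against WT, beside 21.7% of all genes. The 5 fibroblast markers summed to 44.2 to 54.1 CPM in S239D, 68.6 to 70.6 CPM in S239A and 62.2 to 73.0 CPM in WT. Of the 3 that were tested, DCN and LUM fell in S239D against WT, where 21.7% of all genes fell. Of the endothelial markers, 0 of 3 were tested. The part of these levels in the immunoproteasome values was not tested. In RNA of bulk cells, fewer cells of a type and less RNA per cell cannot be told apart.

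In the regulatory particle the ATPase gene PSMC4 rose in S239D. It stood at 126, 130 and 128 CPM in S239D, 92.1, 89.9 and 84.8 CPM in S239A, and 105, 98.5 and 98.6 CPM in WT, with S239D above every other library (against WT log2 fold change 0.34, SE 0.078, adjusted p = 0.00289 by edgeR). PSMC4 was called higher under all 21 alternatives. The other 5 ATPase genes had log2 fold changes of -0.20 (PSMC3) to 0.09 (PSMC6), and none was called. Of the ATPase genes 16.7% thus rose, beside 19.7% of all genes.

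Among the 11 non-ATPase genes, 2 rose and 2 fell in S239D against WT, close to the shares over all genes. PSMD6, a lid subunit, stood at 121, 126 and 109 CPM in S239D, 87.0, 80.6 and 88.2 CPM in S239A, and 96.3, 86.9 and 91.7 CPM in WT. All S239D libraries were above the rest (log2 fold change 0.37, SE 0.087, adjusted p = 0.00397). PSMD14, the deubiquitinase that removes ubiquitin chains from substrates, stood at 38.7, 37.6 and 37.7 CPM in S239D, 41.7, 42.2 and 42.6 CPM in S239A, and 52.7, 49.2 and 53.6 CPM in WT. The 3 groups did not overlap, with S239D lowest and WT highest (log2 fold change -0.45, SE 0.091, adjusted p = 0.00133). PSMD6 and PSMD14 were called under all 21 alternatives.

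PSMD13, another lid subunit, fell by 0.31 on the log2 scale (adjusted p = 0.0107), and the lid subunit PSMD12 rose by 0.31 (adjusted p = 0.0451). With limma on log2(TPM + 1) neither was called (adjusted p 0.131 and 0.09). The PSMD12 call was lost without any 1 of the WT libraries, S239A replicate 1 or S239D replicates 2 or 3 (adjusted p 0.0537 to 0.173), and its log2 fold change was 0.17 without S239D replicate 2. The 7 others were not called, but PSMD1 (log2 fold change -0.25) was without S239A or S239D replicate 2 (adjusted p 0.038 and 0.0399) and with the replicate block (adjusted p = 0.0286), and PSMD2 (0.17) was without S239A replicate 2 (adjusted p = 0.0356). PSMD6 and PSMD2 lie on chromosome 3, where the median over 885 tested genes was 0.22.

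None of the 7 assembly factor genes passed the test in S239D against WT, beside 41.4% of all genes. Their log2 fold changes ran from -0.21 for PSMD9 to 0.22 for PSMD5, both chaperones of the regulatory particle's base, and the lowest adjusted p was 0.0783. The median of the 7 was 0.01. The core-particle chaperone genes PSMG1, PSMG2, PSMG3 and PSMG4 had log2 fold changes of 0.01, 0.06, -0.16 and -0.07, and the base chaperone gene PSMD10 had 0.01. POMP, the maturation factor of the core particle that lies outside the naming rule, stood at 54.4, 52.5 and 57.3 CPM in S239D, 48.3, 42.2 and 56.2 CPM in S239A, and 56.8, 59.7 and 53.9 CPM in WT, and was not called (log2 fold change -0.05).

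**Figure D4:**
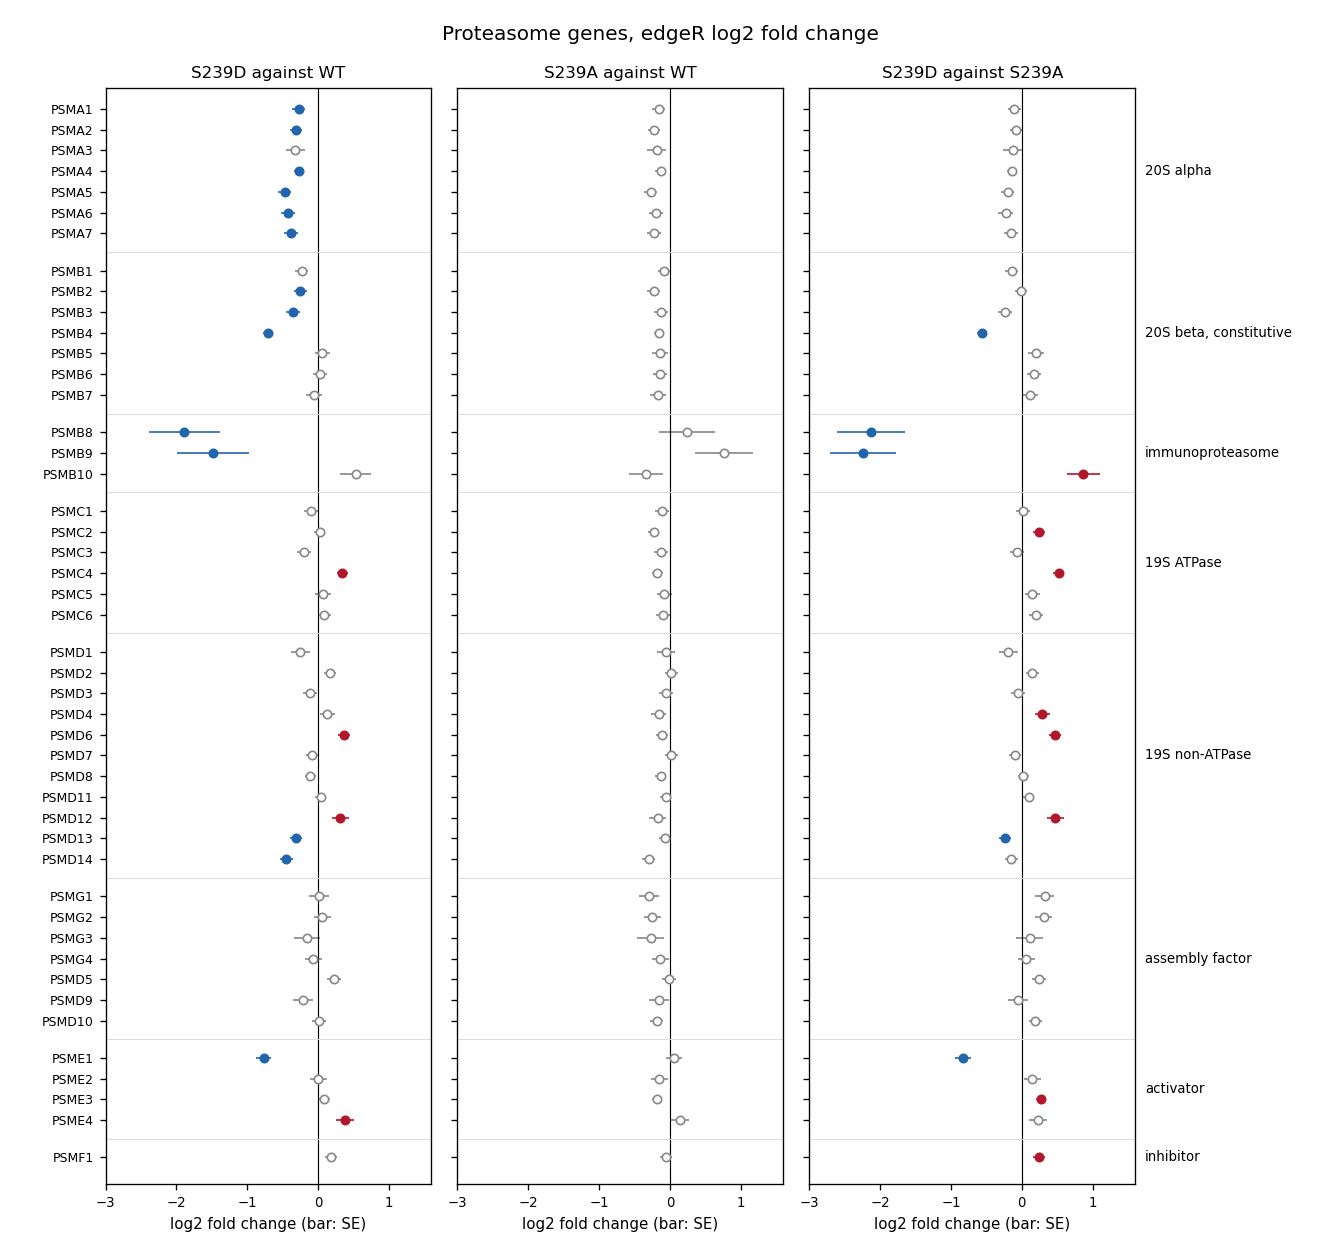
edgeR log2 fold change with SE for the 46 tested proteasome genes in 3 comparisons. Filled red points are genes called higher, filled blue points genes called lower and open points genes not called. S239D against WT has 4 red and 14 blue points, S239A against WT has none, and S239D against S239A has 8 red and 5 blue.

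Of the activator genes PSME1 and PSME2, whose products form 1 ring, PSME1 fell in S239D and PSME2 was not called. PSME1 (chromosome 14, 24136163 to 24138967) stood at 48.0, 57.7 and 57.7 CPM in S239D, 104, 85.7 and 101 CPM in S239A, and 83.8, 96.8 and 99.1 CPM in WT. Every S239D library was well below every other library (against WT log2 fold change -0.77, SE 0.11, adjusted p = 8.62e-05 by edgeR), and the fall was called under all 21 alternatives. PSME2, its neighbour on the other strand (24143362 to 24147570), stood at 51.7, 47.4 and 53.3 CPM in S239D, 48.6, 37.5 and 51.5 CPM in S239A, and 50.2, 52.3 and 50.5 CPM in WT. Its groups overlapped, with a log2 fold change near 0 and a 95% interval of -0.25 to 0.24 against WT. By TPM, PSME1 was 83.2 ± 11% of PSME2 in S239D, 171 ± 4.1% in S239A and 144 ± 10% in WT (SD, n = 3), a pair set side by side after their values were seen.

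PSME4, the nuclear activator that acts on chromatin, stood at 96.5, 129 and 101 CPM in S239D, 84.6, 112 and 81.0 CPM in S239A, and 85.4, 80.9 and 84.9 CPM in WT. Replicate 2 was the highest library of both S239D and S239A. PSME4 rose in S239D against WT (log2 fold change 0.38, SE 0.13, adjusted p = 0.0315), a call lost without any 1 of the WT libraries or S239D replicate 2 (adjusted p 0.0749 to 0.123), and its log2 fold change was 0.24 without S239D replicate 2. PSME3, the other nuclear activator, had 184 ± 4.4 CPM in S239D, 153 ± 3.9 CPM in S239A and 173 ± 5.2 CPM in WT and was not called against WT (log2 fold change 0.09). PSMF1, the inhibitor, stood at 122, 114 and 117 CPM in S239D, 96.4, 107 and 95.3 CPM in S239A, and 106, 108 and 98.5 CPM in WT. All its S239D libraries were the highest, and it was not called against WT (log2 fold change 0.18, adjusted p = 0.106).

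**Figure D5:**
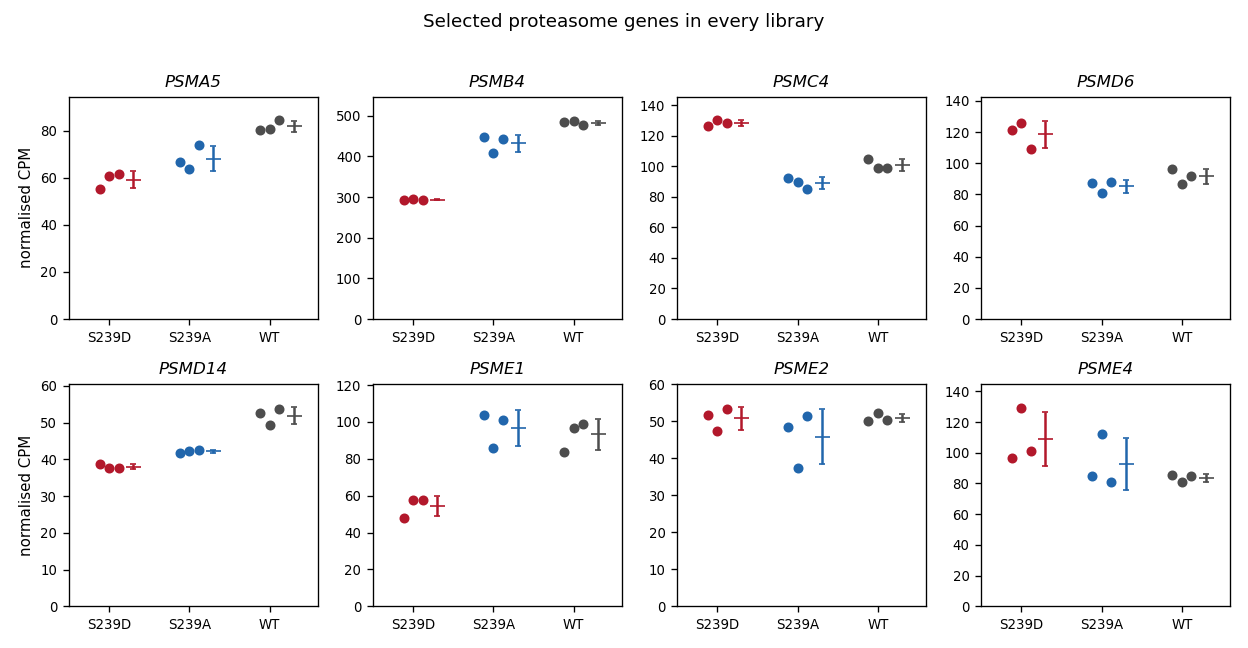
Normalised CPM of 8 proteasome genes in every library, with S239D left of S239A and WT. Points are libraries, and the bar beside them is mean ± SD (n = 3). PSMA5, PSMB4, PSMD14 and PSME1 are lowest in S239D, PSMC4 and PSMD6 are highest there, and PSME2 overlaps between the groups.

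In S239A against WT no proteasome gene passed the test, and over all genes 1 did (0.00617%). At an unadjusted p under 0.05 edgeR found 9 proteasome genes, all lower in S239A, beside 9.76% of all genes. DESeq2 and limma on log2(TPM + 1) called 0 proteasome genes as well. The log2 fold changes were below 0 for 40 of the 46 tested genes, with a median of -0.14 against 0.00 over all genes. The alpha genes, the constitutive beta genes and the assembly factor genes had all their 21 tested genes below 0, with medians of -0.20, -0.14 and -0.19. With limma on log2(TPM + 1), though, PSMD5 was at 0.25. All 6 ATPase genes were also below 0 (median -0.12), as were 9 of the 11 non-ATPase genes (median -0.07). In 16 of the 46 genes (34.8%) every S239A library was below every WT library, against 9.55% of all genes, and in 0 was every one above, against 9.94%.

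The gene with the lowest adjusted p in S239A was PSMD14 (log2 fold change -0.30, SE 0.09, adjusted p = 0.294). Leaving out replicate 2 of both S239A and S239D, which stood apart in an earlier look at these data, gave 5 calls of 46, all lower in S239A, beside 5.29% of all genes in either direction. These were PSMB2 (log2 fold change -0.23, adjusted p = 0.0248), PSMD1 (-0.23, 0.0348), PSMD12 (-0.27, 0.0168), PSMD14 (-0.30, 0.0342) and PSME3 (-0.20, 0.0358). With trends over transcript length and GC content removed, an alternative chosen after seeing the data, the median of the 46 was -0.09. The tested proteasome genes had a median transcript length of 1092 bases, against 1606 for all tested genes. Both variants were compared with the same WT libraries, so that their log2 fold changes against WT are not independent of each other.

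Set directly against S239A, S239D had 8 proteasome genes higher (17.4%) and 5 lower (10.9%), while 20.9% of all genes were higher and 22.7% lower. Without PSMB8 and PSMB9, 8 of 44 were higher and 3 lower. In 11 of the 46 every S239D library was above every S239A library, against 24.2% of all genes, and in 9 every one was below, against 25.6%. Those higher were PSMB10 in the immunoproteasome, PSMC2 and PSMC4 among the ATPases, PSMD4, PSMD6 and PSMD12 among the non-ATPase subunits, the activator PSME3 and the inhibitor PSMF1. Those lower were PSMB4, PSMD13 and PSME1, besides PSMB8 and PSMB9. The alpha genes had log2 fold changes of -0.23 to -0.08 and 0 calls, so with all libraries a difference between S239D and S239A was not shown for the alpha ring. With both replicate 2 libraries left out, 5 of the 7 were called lower, with a median of -0.22, beside 25.2% of all genes called lower.

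PSMC4 was 0.52 higher in S239D than in S239A on the log2 scale (SE 0.078, adjusted p = 0.000109 by edgeR). PSMD6 was 0.47 higher (SE 0.087, adjusted p = 0.000615), and PSMD12 also 0.47 higher (SE 0.12, adjusted p = 0.00439). PSME1 was lower, with a log2 fold change of -0.83 (SE 0.11, adjusted p = 3.75e-05). PSME3 and PSMF1 were 0.27 and 0.24 higher (adjusted p 0.00858 and 0.0315).

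Several of these calls changed when 1 library was left out. PSMC2 lost its call without S239A replicate 1 or S239D replicate 3 (adjusted p 0.097 and 0.143). PSMD4 lost it without any of 6 libraries, S239A 1 and 2, S239D 1 and 3 and WT 2 and 3 (adjusted p 0.0519 to 0.162), and PSMF1 without any of S239D 1 and 3, S239A 1 and 3 and WT 1 and 2 (0.0507 to 0.113). PSMD13 kept its call in leave-one-out fits only without S239D replicate 3, with adjusted p 0.057 to 0.0929 without each of the other 8. Conversely, S239D replicate 2 held back calls of PSMA3, PSMA6, PSMB5, PSMB7 and PSMC5 (adjusted p 0.00379 to 0.0366 without it), and S239A replicate 2 those of PSMA5, PSMB1, PSMB3, PSMD2, PSMD5 and PSME4 (0.00937 to 0.0419). Leaving out S239D replicate 1 added PSMC6, PSMG1, PSMG2 and PSMD5, and leaving out S239A replicate 3 added PSMG2. With both replicate 2 libraries left out, 24 of 46 proteasome genes were called, beside 49.9% of all genes. With the replicate number as a block, the calls rose to 17, the gains being PSMA6 (log2 fold change -0.24, adjusted p = 0.0487), PSMB3 (-0.24, 0.0463), PSMG2 (0.32, 0.0386) and PSMD5 (0.24, 0.0492).

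Genes that work with the proteasome were read from lists outside the naming rule. Their counts stand against the 19.7% of all genes that rose and the 21.7% that fell in S239D against WT. In S239D against WT, 3 of 12 proteasome-associated genes rose and 0 fell, with a median log2 fold change of 0.06. They were ZFAND2A, a stress-induced proteasome adaptor (log2 fold change 0.70, adjusted p = 0.00376), PAAF1, a chaperone of the ATPase ring (0.31, 0.0388), and USP14, a deubiquitinase bound to the regulatory particle (0.29, 0.0436). Of 6 tested ubiquitin shuttle genes DDI2 rose, and DDI1 had 0 counts in every library. Of 13 genes listed around NFE2L1, among them NFE2L2 and KEAP1, 3 rose and 1 fell. NGLY1, which deglycosylates NFE2L1, rose by 0.53 (adjusted p = 0.0015) and its partner MAFF fell by 0.59 (adjusted p = 0.000991). NFE2L1 itself stood at 222, 172 and 219 CPM in S239D, 206, 223 and 218 CPM in S239A, and 191, 205 and 195 CPM in WT and was not called (log2 fold change 0.05).

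Of 6 ubiquitin and ubiquitin-activating enzyme genes, 3 fell and 0 rose in S239D against WT, beside 21.7% and 19.7% of all genes. Their median was -0.28. Among these were the ubiquitin precursors UBB (log2 fold change -0.43, adjusted p = 0.000387) and RPS27A (-0.40, 0.0015). UBB stood at 528, 538 and 517 CPM in S239D, 625, 628 and 651 CPM in S239A, and 771, 677 and 686 CPM in WT. Every S239D library was below every S239A library, and these were below every WT library. RPS27A also encodes a ribosomal protein fused to ubiquitin.

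Complexes built on the same scaffold as the lid were compared with it. In the COP9 signalosome 3 of 10 genes rose and 0 fell, namely COPS5 (log2 fold change 0.47, adjusted p = 0.000721), COPS6 (0.32, 0.00247) and COPS9 (0.54, 0.00775), with a median of -0.06. In the translation initiation factor eIF3, 2 of 13 genes rose and 4 fell, with a median of -0.18. Over all genes 19.7% rose and 21.7% fell. EIF3K fell by 0.52 (adjusted p = 0.000225), EIF3L by 0.49 (adjusted p = 0.00772) and EIF3A rose by 0.40 (adjusted p = 0.00611). None of the 8 genes of the TRiC chaperonin, a ring complex unrelated to the proteasome, passed the test, and their median was -0.12.

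Of 10 interferon signalling genes, upstream of the immunoproteasome, 2 rose and 2 fell in S239D against WT, close to the shares over all genes. NLRC5, the MHC class I transactivator, stood at 4.53, 5.67 and 5.14 CPM in S239D, 2.35, 2.09 and 1.64 CPM in S239A, and 1.41, 2.28 and 1.81 CPM in WT, and rose with no overlap (log2 fold change 1.51, SE 0.28, adjusted p = 0.000769). IFNGR1, a chain of the interferon gamma receptor, fell by 0.52 (adjusted p = 0.00172) and the kinase JAK1 rose by 0.58 (adjusted p = 0.019). IRF1 was not called (log2 fold change 0.29).

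Of 8 tested peptide loading genes, 4 fell and 2 rose in S239D against WT, beside 21.7% and 19.7% of all genes. Their median was -0.33. HLA-B stood at 17.0, 14.3 and 16.9 CPM in S239D, 58.1, 49.3 and 62.3 CPM in S239A, and 50.4, 51.4 and 51.6 CPM in WT, so that all S239D libraries were far below the rest (log2 fold change -1.67, SE 0.12, adjusted p = 2.13e-07). HLA-C fell by 0.72 (adjusted p = 9.71e-05). The HLA genes are near-identical in part, so reads can be split between them. TAP1, which overlaps PSMB9, was not called (log2 fold change -0.05). In S239A against WT 0 genes passed the test in each of these 9 lists. In S239D against S239A, where 20.9% of all genes were higher and 22.7% lower, 4 of 12 proteasome-associated genes were higher and 0 lower. Of 13 NFE2L1 genes 3 were higher and 1 lower, of 6 ubiquitin genes 3 were lower, of 10 COP9 genes 3 were higher, and of 13 eIF3 genes 1 was higher and 4 lower. Of 10 interferon signalling genes 1 was higher and 1 lower, of 8 peptide loading genes 1 was higher and 4 lower, and 0 of the shuttle and TRiC genes were called.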

How the data were processed

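RNA was measured in 9 libraries. Per the labels' protocols, poly-T beads selected the mRNA and random hexamers primed its copying. The authors deposited expected counts per gene, not normalised between libraries, and TPM. Per the submitters' processing notes, Trimmomatic 0.39 and RSEM were used. Not given in the sources used here are aligner, build, annotation and strandedness. Coordinates come from the deposited table, and all 48 proteasome genes overlapped their GENCODE release 29 gene (GRCh38).

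Expected counts were rounded, filtered with filterByExpr and scaled by TMM. They were tested with edgeR 4.0.16 (two-sided quasi-likelihood F tests, group means, 1 fit of all 9 libraries, Benjamini-Hochberg over 16213 genes, called at 0.05). The code was tested on simulated data. Of the 46 tested proteasome genes, 44 reached the filter's 1.17 CPM in all 9 libraries. Ratios of TPM were compared by exact permutation, and p-values are given for PSMB10 to PSMB7 alone. The members, roles and lists were chosen with earlier results of these data known. Every proteasome gene could be named. Values in every library are given for the catalytic pairs and, per role, for the 2 called genes with the smallest adjusted p in S239D against WT and the largest called change in each comparison. Up to 3 called genes per list are named, and others were chosen after their values were seen. Some listed genes are not reported here.

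Deviations of same-numbered S239D and S239A libraries from their group means correlated at 0.1003, 0.2512 and 0.1027, the highest being that of replicate 2. The main fit and the permutation tests did not pair libraries. Replicate number entered only as a block in an alternative fit. Correlations with WT were at most 0.09143. The labels do not give a pairing. No libraries looked like duplicates, with chi-square per degree of freedom of 1.9 or more within groups. Of the proteasome genes, 7 had counts that were not whole. Listed pseudogenes had at most 1.31% of a parent's counts. Of the 48 genes, 29 overlap another gene, 19 of them one with at least 10% of their counts. Alternatives were RLE scaling, DESeq2 1.42.0, limma 3.58.1 on TPM with other pseudocounts and filters, other count filters, fits of the compared groups alone, a replicate block, mitochondrial genes left out and each library left out. Both replicate 2 libraries were also left out, and length and GC trends were removed in a fit added after seeing the data.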

Additional observations from a re-analysis of the deposited data

How the results depend on the processing

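For S239D against WT, limma on log2(TPM + 1), on log2(TPM + 0.1) and without a filter called 10, 10 and 5 proteasome genes in place of 18, and 4351, 4284 and 3717 genes in all in place of 6708. For S239D against S239A they called 4697, 4642 and 4094 genes in all in place of 7064, and without a filter 6 proteasome genes in place of 13. Of all genes called in S239D against WT, 58.1% were higher with limma on log2(TPM + 1) and 47.6% with edgeR, and against S239A 59.3% and 48.0%. On log2(TPM + 0.1) the median over all genes in S239D against S239A was 0.10, and that of the proteasome genes 0.11. Fits of the compared groups alone called 8 proteasome genes in that comparison, and removing length and GC trends or both replicate 2 libraries called 24 each. For S239A against WT, removing both replicate 2 libraries called 5 proteasome genes in place of 0 and 874 genes in all in place of 1. Other counts over all genes in S239A against WT were 66 with DESeq2, 2, 3 and 2 with limma on log2(TPM + 1), on log2(TPM + 0.1) and without a filter, 142 with edgeR without a filter and 32 with length and GC trends removed. The replicate block gave 6 there, 21 proteasome genes in S239D against WT and 17 in S239D against S239A, and 6 of 9 libraries correlated best with their own number. Leaving out 1 library gave 13 to 22 proteasome genes in S239D against WT, 0 in S239A against WT and 9 to 17 in S239D against S239A. Over all genes it gave 5322 to 7533, 1 to 8 and 5853 to 7182, the 8 being without S239D replicate 2 and the next highest, 2, without WT replicate 3. PDCD4 in S239D against WT was -0.29 (adjusted p = 0.41), -0.31 (0.411) and -0.29 (0.51) in the limma fits, and -0.53 to -0.39 with 1 library left out, where WT replicate 1 or 2 ended the call. Against S239A it was -0.40 with DESeq2 (adjusted p = 0.0569), -0.20 (0.585), -0.21 (0.589) and -0.20 (0.663) in the limma fits, and -0.50 to -0.31 with 1 library left out, where S239A replicate 3, S239D replicate 1 or S239D replicate 3 ended it. The log2 ratio of PSMB10 to PSMB7 in S239D against WT was 0.58 by normalised CPM and 0.34 by TPM. The cause of these differences was not tested. No result changed sign with its call. Of the calls of proteasome genes, 2 of 4 higher and 3 of 14 lower in S239D against WT, and 2 of 8 higher and 2 of 5 lower in S239D against S239A, stood under all 21 alternatives. PSMB9 against WT and PSMB8 against S239A had no value in the fits of the compared groups alone, where they did not pass the filter. Depth limits PSMB8 and PSMB9, with 11 and 19 counts over the S239D libraries.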
